A study of Mus musculus with 24 samples.

Results

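Chemokines and chemokine receptors were followed in whole liver RNA of 24 mice in 5 groups. The members were the protein-coding genes whose symbol begins with Ccl, Ccr, Cxcl, Cxcr, Cx3cl or Cx3cr followed by a digit, in any deposited table. This gave 54 of the 24137 genes of the joined tables, of which 17879 are protein-coding. Of the 54 members, 36 encode ligands and 18 encode receptors. The symbols of 2 other genes matched but are not protein-coding in the tables, Ccl19-ps1 (a pseudogene) and Cxcl11 (listed as a polymorphic pseudogene), and these were left out. No expression value entered the choice.

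The HF_TZD_KO group (n = 5) held mice labelled as knockouts of PPARγ in hepatocytes alone, fed the HFCF diet for 34 weeks, with the knockout induced after 24 weeks and so lasting 10 weeks, and with rosiglitazone maleate in that diet for the last 8 weeks. The HF_TZD_C group (n = 5) held control mice on the same diet with the same drug. The HF_KO group (n = 5) held mice labelled as the same knockout on the HFCF diet without the drug. The HF_C group (n = 5) held control mice on the HFCF diet for 34 weeks without the drug, and the LF_C group (n = 4) held control mice on the LFCF diet, labelled low fat and healthy. PPARγ is a nuclear receptor activated by fatty acids, rosiglitazone is a thiazolidinedione that activates it, and the series links the HFCF diet to nonalcoholic steatohepatitis, a fatty liver with inflammation. The labels describe the mice as adult and give each library a mouse ID of its own. The time on the LFCF diet is not given in the sources used here. Strain, sex, the recombinase and its promoter, and what the control genotype carries are not given in the sources used here.

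Chemokines are small secreted or membrane-bound proteins that draw leukocytes towards their source by binding G protein-coupled receptors on them. Their names (CC, CXC and CX3C) describe the spacing of cysteines near the amino terminus, several ligands can share a receptor, and ligands that share a receptor often lie side by side in the genome. In injured liver, Ccl2 and its receptor Ccr2 are known for bringing in monocytes from blood, Cxcl1 and its relatives for bringing in neutrophils, and Cxcl12 for holding cells that carry Cxcr4. Many of the inflammatory ligands are transcribed through NF-κB, which binds κB sites in their promoters.

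The promoters of 6 ligands are shown because the results below differ between them. Each is the 250 bases before the transcription start, on the gene's strand, 5′ to 3′, from RefSeq on GRCm38.p6, and capitals mark every match to the κB consensus, the palindrome TTCNNNGAA or TATAAA (the TATA box). Both strands were searched, and matches on opposite strands may overlap. Cxcl1 (chr5:90890995-90891244, plus strand) and Cxcl2 (chr5:90903649-90903898, plus strand) are neutrophil attractants, and Cxcl10 (chr5:92348890-92349139, minus strand) is induced by interferon. Ccl9 (chr11:83578637-83578886, minus strand) was higher under rosiglitazone in control mice, and did not pass with the drug in libraries labelled knockout (log2 difference 0.29). The difference between these drug effects did not pass either. Cxcl12 (chr6:117168285-117168534, plus strand) had the highest level of all members in every group, and Cxcl13 (chr5:95956689-95956938, plus strand) was lower on the HFCF diet.
Cxcl1: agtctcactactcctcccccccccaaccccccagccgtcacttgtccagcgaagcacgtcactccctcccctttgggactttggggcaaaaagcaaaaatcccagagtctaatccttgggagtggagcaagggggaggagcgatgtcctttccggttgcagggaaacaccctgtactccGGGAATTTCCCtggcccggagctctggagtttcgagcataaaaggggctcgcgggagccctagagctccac
Cxcl2: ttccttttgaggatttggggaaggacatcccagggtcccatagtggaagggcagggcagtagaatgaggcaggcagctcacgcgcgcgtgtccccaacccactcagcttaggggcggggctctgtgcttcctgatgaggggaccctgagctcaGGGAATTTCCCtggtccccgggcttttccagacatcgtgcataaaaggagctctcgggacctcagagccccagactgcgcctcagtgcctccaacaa
Cxcl10: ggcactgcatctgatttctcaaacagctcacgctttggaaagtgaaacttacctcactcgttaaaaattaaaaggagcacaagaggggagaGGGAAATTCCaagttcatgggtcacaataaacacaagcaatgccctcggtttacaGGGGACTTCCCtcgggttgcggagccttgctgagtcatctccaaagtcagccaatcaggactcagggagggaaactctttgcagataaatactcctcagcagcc
Ccl9: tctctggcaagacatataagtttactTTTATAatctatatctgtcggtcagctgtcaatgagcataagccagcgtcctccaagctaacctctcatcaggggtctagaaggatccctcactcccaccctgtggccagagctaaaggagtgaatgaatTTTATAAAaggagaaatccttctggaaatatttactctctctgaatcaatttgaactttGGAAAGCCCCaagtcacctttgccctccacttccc
Cxcl12: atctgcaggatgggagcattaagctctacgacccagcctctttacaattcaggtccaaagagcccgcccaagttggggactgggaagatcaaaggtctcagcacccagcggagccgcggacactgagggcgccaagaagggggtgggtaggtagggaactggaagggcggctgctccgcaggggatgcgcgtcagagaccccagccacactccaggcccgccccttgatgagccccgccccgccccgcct
Cxcl13: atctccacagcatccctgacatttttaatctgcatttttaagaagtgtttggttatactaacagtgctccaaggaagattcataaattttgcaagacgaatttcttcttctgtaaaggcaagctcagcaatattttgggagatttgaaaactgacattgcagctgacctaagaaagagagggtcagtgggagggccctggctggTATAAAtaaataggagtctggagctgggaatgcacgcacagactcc
The κB match of Cxcl1 began 71 bases before the start and that of Cxcl2 began 97 bases before it, each read on both strands with a shift of 1 base. Cxcl10 had matches at 159, 104 and 103 bases before the start, and Ccl9 had 1 at 35 bases on the opposite strand. In the windows of Cxcl12 and Cxcl13 the κB letters were not found. Of the 40 members with a RefSeq promoter, 9 (22.5%) held a κB match, against 7.28% of 32536 promoters of the same length in the table. For some members the RefSeq start lay far from the deposited gene start. The distance was 125878 bases for Ccl1, which held a κB match, 88772 for Ccr9, 82647 for Ccl21b and 8307 for Ccr1l1. TTCNNNGAA was found in 4 members (10.0%), against 7.04% of all promoters, and TATAAA in 10 members (25.0%), against 12.3%. These counts describe letters in a window and say nothing of binding. RefSeq promoters were not matched for Ccl2, Ccl4, Ccl5, Ccl7, Ccl11, Ccl24, Ccl26, Ccr7, Ccr10, Cxcl5, Cxcl16, Cxcl17 and Cxcr5, among others.

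The libraries held 19502150 to 28742638 counted reads. Levels are in CPM, each count scaled to a fixed library size, and normalised over all 24 libraries together by the trimmed mean of M-values (TMM). The 4 hepatocyte markers Alb, Apob, Cps1 and Ttr summed to between 37669.7 and 103488.6 CPM in every library. Pparg, the gene named as knocked out, stood at 31.7 to 62.0 CPM in HF_TZD_KO, 24.5 to 30.6 in HF_TZD_C, 57.7 to 70.2 in HF_KO, 28.3 to 35.5 in HF_C and 10.0 to 18.4 in LF_C. It was thus higher, not lower, in libraries labelled knockout than in their controls, and this passed with the drug (log2 fold change 0.79, SE 0.16, adjusted p = 0.0042) and without it (log2 fold change 0.99, SE 0.08, adjusted p = 4.5e-05). A count over the whole gene includes exons outside a deletion and cells other than hepatocytes, so it does not check the labels, and each direction given for HF_KO or HF_TZD_KO below follows its label. Among the HF_TZD_KO libraries, replicate 5 was the lowest in 15 of the 27 members with a mean of at least 1 CPM in that group, and its receptors summed to 35.9 CPM, against 62.9 to 84.1 in the other 4. Results that use this group are given with and without it where its removal changes a call.

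Of the 54 members, 31 had a mean of at least 1 CPM in at least 1 group, 22 ligands and 9 receptors, and the other 23 stayed under 1 CPM in every group. By group, 27 members reached 1 CPM in HF_TZD_KO, 30 in HF_TZD_C, 28 in HF_KO, 30 in HF_C and 21 in LF_C. Divided by gene length, Cxcl12 had the highest level in every group, at 87.7, 66.3, 70.3, 62.7 and 83.3 CPM per kilobase in HF_TZD_KO, HF_TZD_C, HF_KO, HF_C and LF_C. It made up 60.9 to 70.6% of the summed CPM of all members in HF_TZD_KO, 44.7 to 53.1% in HF_TZD_C, 53.1 to 62.0% in HF_KO, 48.2 to 56.2% in HF_C and 73.1 to 79.9% in LF_C. Ccl6, Ccl9, Cxcl1, Cxcl9, Cxcl16 and Ccl5 followed it among ligands in HF_C, between 10.6 and 17.9 CPM per kilobase, and among receptors Cx3cr1 stood at 7.92 and Ccr2 at 5.4 CPM per kilobase.

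**Figure D1:**
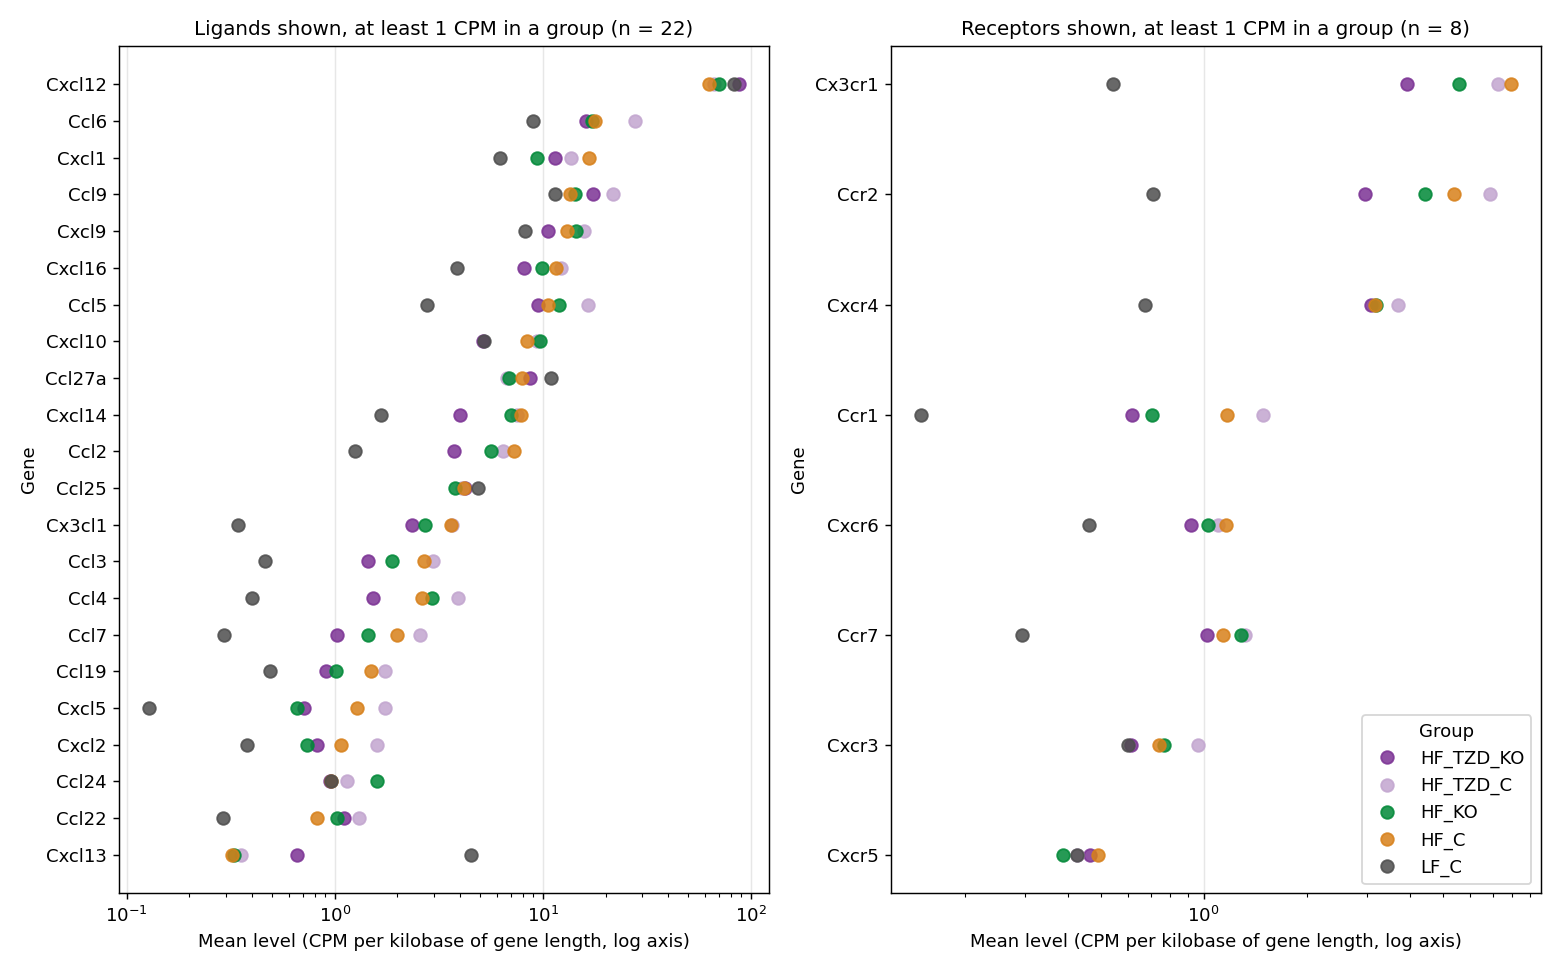
Mean level of each member with at least 1 CPM in a group, in CPM per kilobase of gene length on a log axis, with ligands on the left (n = 22), receptors on the right (n = 8, of 9) and 1 point per group. Cxcl12 lies apart at 62.7 to 87.7 CPM per kilobase, and for most other members the LF_C point is the lowest, while for Ccl27a, Ccl25 and Cxcl13 it is the highest.

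Summed over the 18 receptors, levels were 35.9 to 84.1 CPM in HF_TZD_KO, 98.9 to 156.1 in HF_TZD_C, 68.2 to 100.9 in HF_KO, 89.7 to 137.5 in HF_C and 12.7 to 25.6 in LF_C. The 20 HFCF libraries all lay above the 4 LF_C libraries, and all 5 HF_TZD_KO libraries lay below all 5 HF_TZD_C libraries. The ligands without Cxcl12 summed to 154.5 to 248.3 CPM in HF_TZD_KO, 247.3 to 353.3 in HF_TZD_C, 159.6 to 256.2 in HF_KO, 208.3 to 257.5 in HF_C and 113.4 to 136.3 in LF_C. A single library, HF_TZD_KO replicate 2 at 248.3 CPM, reached the range of HF_TZD_C. These sums describe the members' total and carry no test. Most of the receptor sum came from few genes, with Cx3cr1 at 29.5 and Ccr2 at 28.9 of a mean of 103.5 CPM in HF_C.

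**Figure D2:**
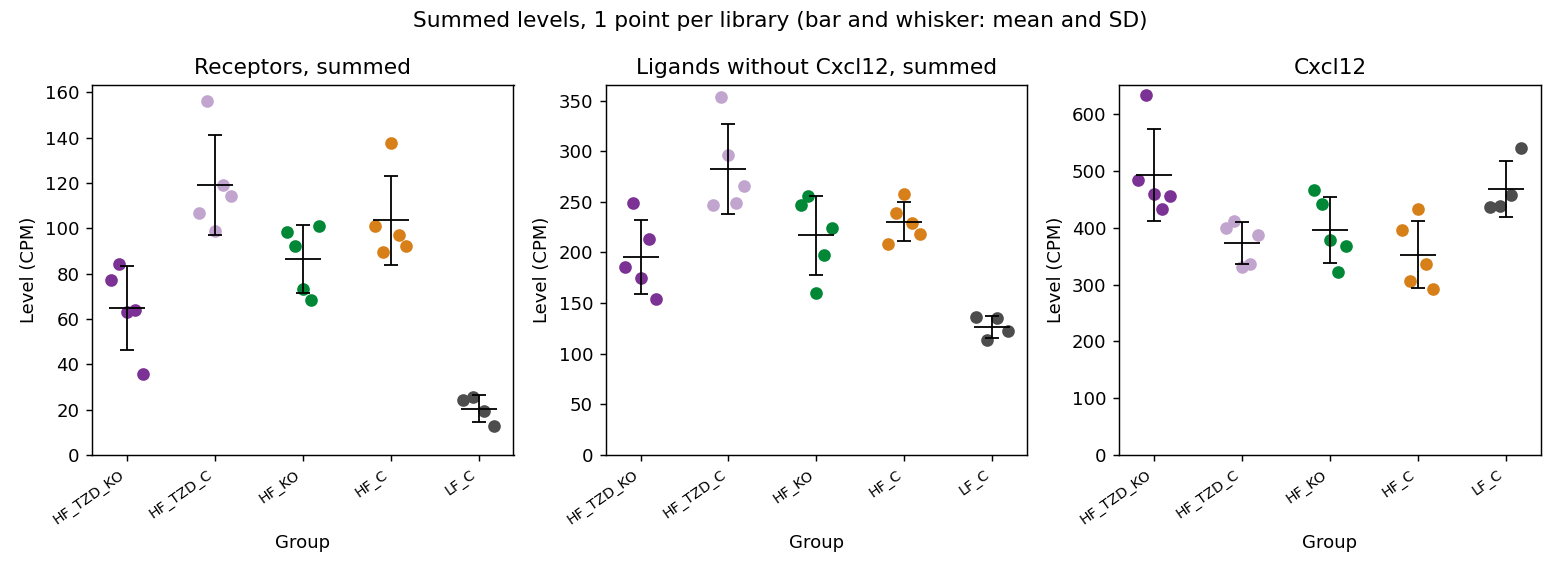
Summed level of the 18 receptors, of the 35 ligands other than Cxcl12, and of Cxcl12 alone, in CPM, with 1 point per library and bars for the mean and SD (n = 5 per group, n = 4 in LF_C). Receptor sums are 12.7 to 25.6 CPM in LF_C and 35.9 to 156.1 CPM in the HFCF groups, whereas Cxcl12 is highest in HF_TZD_KO and LF_C.

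The diet comparison (HF_C against LF_C) asks how 34 weeks on the HFCF diet changed the liver of control mice. Most of the chemokine genes tested rose. The smallest adjusted p belonged to the monocyte receptor Ccr2, up 7.46-fold, followed by the fractalkine receptor Cx3cr1, up 14.2-fold, and its membrane-bound ligand Cx3cl1, up 10.4-fold. The ligands of Ccr2 rose as well, Ccl2 by 5.7-fold and Ccl7 by 6.5-fold. Only Cxcl12 and Cxcl13 fell among the members tested, and the fall of Cxcl12 did not pass with library totals in place of TMM. Of the 54 members, 36 passed the filter on low counts, and the filter keeps a gene that is high in 1 of the groups only, so the 36 are not all members. Of these, 23 rose and 2 fell at an adjusted p under 0.05 by edgeR's quasi-likelihood test, while 21.4% of all 14772 genes tested rose and 19.2% fell. By role, 16 ligands rose and 2 fell of 24, and 7 receptors rose of 12. The median log2 fold change of the members tested was 1.47, against -0.03 over all genes tested. In 23 of the 36 the groups did not overlap, against 33.6% of all genes tested. All p-values measure the spread between these mice. Cxcl5, Ccl7, Ccl4 and Ccl3 were read 18, 21, 23 and 31 times over the 4 LF_C libraries. Only their HF_C counts carried them past the filter, so the size of their rise rests on a low baseline.

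The markers of other cell types moved in the same comparison, and their part in the members' changes was not tested. All 7 markers of recruited and lipid-associated macrophages rose, and they summed to 858.1 to 1746.6 CPM in HF_C, against 140.4 to 238.2 CPM in LF_C. Of the T and NK cell markers 6 of 8 rose (8.83 to 17.7 CPM in HF_C, against 3.82 to 5.51 in LF_C), of the stellate cell markers 4 of 5, of the dendritic cell markers 3 of 5, of the neutrophil markers 2 of the 3 tested, and all 4 cholangiocyte markers. Kupffer cell markers fell in 2 of 5, endothelial markers in 2 of 5, hepatocyte markers in 3 of 4 (44292.2 to 52532.3 CPM in HF_C, against 74082.3 to 102307.9 in LF_C), and the 4 B cell markers passed in neither direction. Of the adipocyte markers, Cfd was the 1 tested and rose, Adipoq had 0 counts in HF_C and Plin1 had 0 in LF_C, and Ly6g of the neutrophil list had 0 in HF_C. In whole tissue, more cells of a type and more RNA per cell cannot be told apart, and this holds for every result below.

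**Figure D3:**
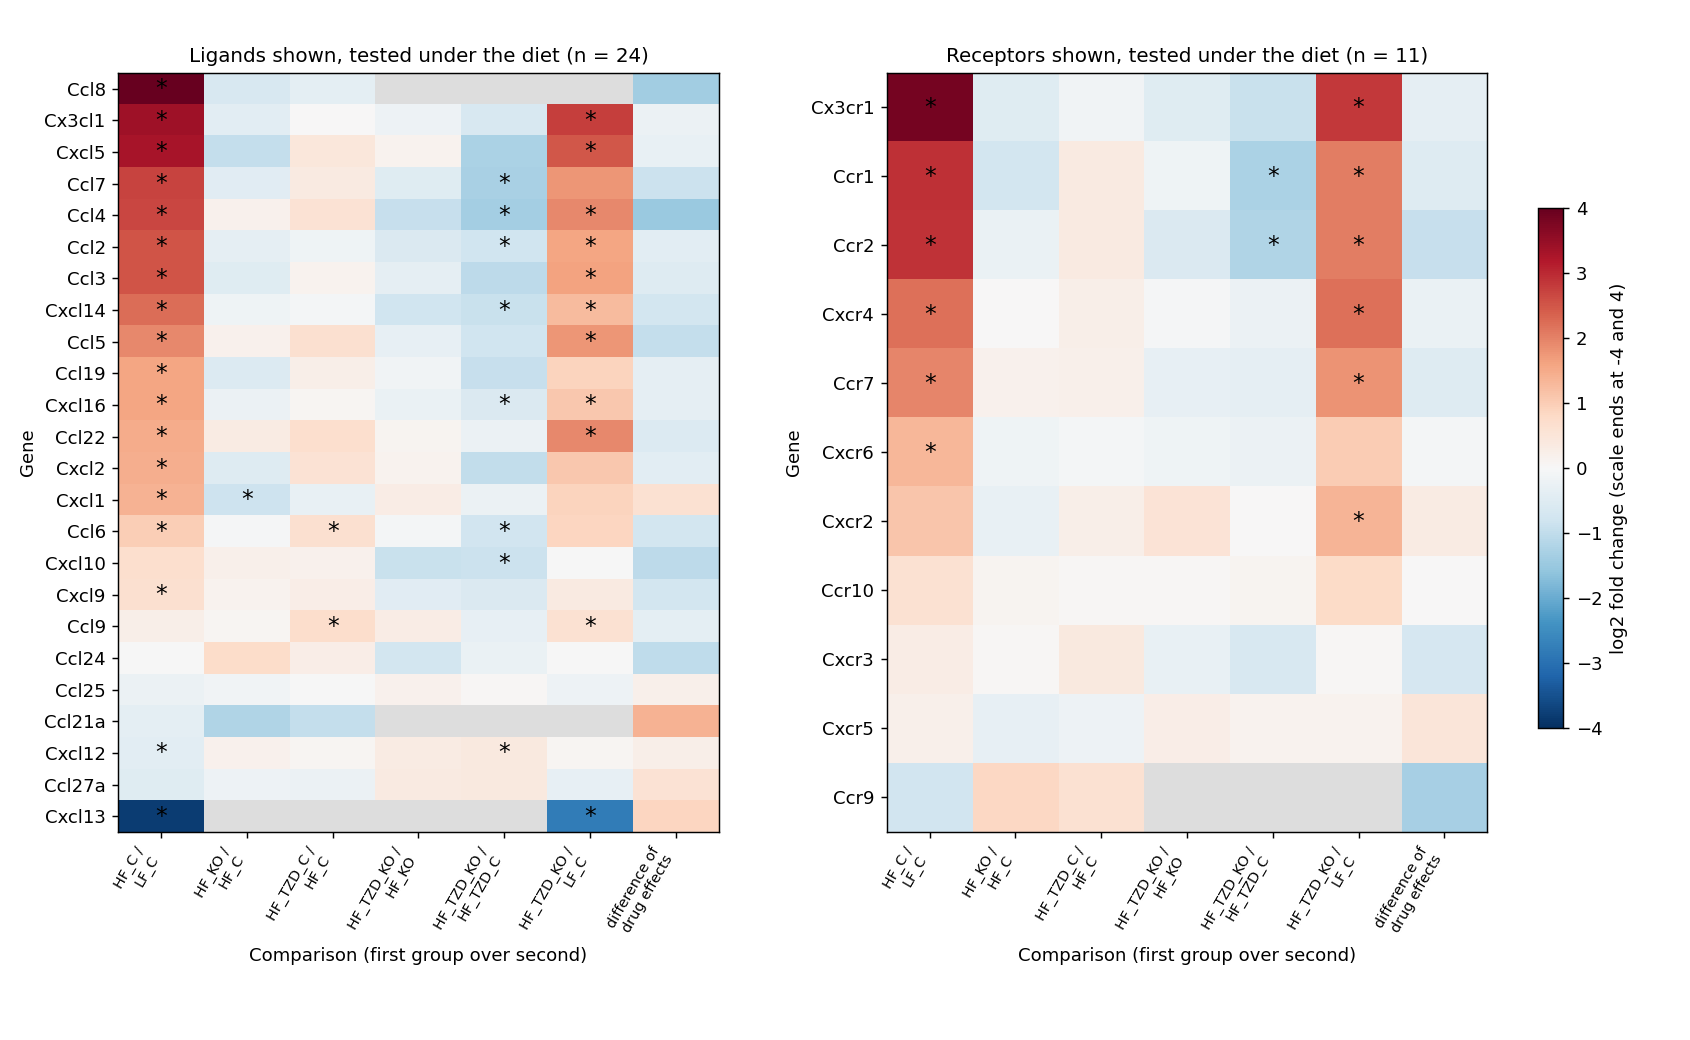
Log2 fold change of each member tested under the diet (24 ligands on the left, 11 of 12 receptors on the right), with 1 column per comparison, an asterisk for an adjusted p under 0.05 and grey for a member that was not tested. The HF_C over LF_C column holds 24 asterisks, 22 of them on red cells, and the HF_TZD_KO over HF_TZD_C column holds 10, 9 of them on blue cells and 1 on red (Cxcl12).

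Within the HFCF diet, few chemokine genes changed with the knockout label alone. Cxcl1, a neutrophil attractant, fell in HF_KO against HF_C (log2 fold change -0.83, SE 0.15, adjusted p = 0.0165). It was the 1 member of 36 tested that passed, and 0 rose, while 0.539% of all 14844 genes tested fell and 0.485% rose. At an unadjusted p under 0.05 there were 6 of the 36 members, and 11.1% of all genes tested. DESeq2 also called 1. For 35 members no difference passed, and the 95% interval of the log2 fold change, which like all intervals here is not adjusted for the number of genes, was -0.53 to -0.01 for Ccr2 and -0.83 to 0.11 for Ccl2. Of the marker lists, only Cfd of the adipocyte list passed (log2 fold change -5.77), and its part in the change of Cxcl1 was not tested.

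Rosiglitazone in control mice (HF_TZD_C against HF_C) went with higher levels of 2 neighbouring ligands of chromosome 11, Ccl9 (log2 fold change 0.69, SE 0.08, adjusted p = 0.000266) and Ccl6 (log2 fold change 0.63, SE 0.14, adjusted p = 0.0165). Both are CC chemokines of rodents that act through Ccr1. They were 2 of 38 members tested, and 0 fell, while 2.69% of all 14937 genes tested rose and 2.61% fell. An unadjusted p under 0.05 was found for 7 of the 38 members, and for 19.1% of all genes tested. Of the cell type markers, Ttr of the hepatocyte list fell (log2 fold change -0.45) and Cfd of the adipocyte list rose (3.84), and no other list had a call. The adipocyte markers, of which only Cfd passed the filter and was tested, summed to 101.6 to 204.9 CPM in HF_TZD_C, against 2.92 to 20.8 in HF_C. Adipoq had 0 counts in HF_C, and the part of these markers in the change of Ccl9 and Ccl6 was not tested. Leaving out HF_C replicate 3 raised the count to 4, with Ccr6 among those added.

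In libraries labelled knockout the drug moved no member past the threshold (HF_TZD_KO against HF_KO). Of 33 tested, 0 rose and 0 fell by edgeR's test, with a smallest adjusted p of 0.0883 for Cxcl14 (log2 fold change -0.80), while 0.426% of all 14559 genes tested rose and 0.309% fell. At an unadjusted p under 0.05 there were 9 of the 33, and 15.3% of all genes tested. DESeq2 called 2, Cxcl10 (log2 fold change by edgeR -0.90) and Cxcl14, both lower. Among the markers, Cps1 of the hepatocyte list (0.92) and Cfd (3.78) rose.

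Under rosiglitazone, libraries labelled knockout held fewer transcripts of a set of chemokine genes than their controls (HF_TZD_KO against HF_TZD_C). The monocyte receptor Ccr2 and its ligands Ccl2 and Ccl7 fell, with Ccr2 at 0.432, Ccl2 at 0.578 and Ccl7 at 0.403 of the level in HF_TZD_C. The call of Ccl7 ended without HF_TZD_C replicate 2 (adjusted p = 0.0527). The receptor Ccr1 also fell, as did the ligands Ccl4 and Ccl6, the interferon-induced Cxcl10, and Cxcl14 and Cxcl16. Cxcl12 was higher. With a library left out, the call of Ccr1 ended in 8 of 10 fits and that of Ccl6 in 6. The calls of Cxcl12 and Cxcl16 ended in 3 fits, those of Cxcl10 and Cxcl14 in 2, and that of Ccl4 in 0. Cxcl12 also did not pass with library totals in place of TMM. Of 33 members tested 10 fell and 1 rose, while 7.81% of all 14602 genes tested fell and 8.53% rose. The median log2 fold change of the members was -0.64, against 0.00 over all genes tested. In 9 of the 33 members the groups did not overlap, against 14.3% of all genes tested. By role, 7 ligands fell and 1 rose of 21, and 3 receptors fell of 12.

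Marker lists stood as follows in the same comparison, and their part in the members' changes was not tested. Hepatocyte markers rose in 3 of 4 and summed to 72263.9 to 103488.6 CPM in HF_TZD_KO, against 37669.7 to 47605.5 CPM in HF_TZD_C. None of the 7 macrophage markers passed (median log2 fold change -0.72, summed level 310.9 to 1075.8 CPM in HF_TZD_KO, against 786.5 to 1136.7 in HF_TZD_C), and none of the 8 T and NK cell markers (median -0.55, 5.85 to 16.2 CPM in HF_TZD_KO, against 12.3 to 20 in HF_TZD_C). Neutrophil markers rose in 3 and fell in 1 of the 4 tested, and 1 of 4 B cell, 1 of 5 stellate and 1 of 5 endothelial markers fell. Of the adipocyte markers, Cfd was the 1 tested and fell (log2 fold change -5.80, adjusted p = 1.08e-05). The adipocyte markers summed to 0.41 to 6.5 CPM in HF_TZD_KO, against 101.6 to 204.9 in HF_TZD_C, with Adipoq at 0 counts in HF_TZD_KO. Library totals in place of TMM moved the median of all genes to -0.16 and gave 14 members lower and 0 higher. Leaving out HF_TZD_C replicate 2 left 5 calls (Ccl2, Ccl4, Ccr2 and Cxcl12 among them) and HF_TZD_C replicate 3 left 7. Without HF_TZD_KO replicate 5, the library with the lowest receptor sum, 9 calls held, and Ccl6 and Ccr1 did not pass.

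The drug effect in libraries labelled knockout was compared with that in controls in 1 fit of the 20 HFCF libraries. A negative value means that the change with the drug was lower in the libraries labelled knockout. Of 40 members tested, 0 passed in either direction, while 1.56% of all 15365 genes tested were higher and 0.892% lower. The median of the members was -0.42, against 0.01 over all genes. An unadjusted p under 0.05 was found for 11 of the 40, against 16% of all genes tested. Of the marker lists 1 had calls, with 3 of 4 hepatocyte markers higher. Ccr2 came nearest (log2 fold change -0.93, SE 0.27, adjusted p = 0.0684), and Ccl4 had the smallest adjusted p of the ligands (log2 fold change -1.49, SE 0.47, adjusted p = 0.0986). DESeq2 called 3 members, Ccr2 and Ccl4 among them. In edgeR's fit Ccr2 passed without HF_C replicate 3 or HF_TZD_KO replicate 2, and Ccl4 and Cxcl10 passed without HF_KO replicate 3.

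The libraries labelled knockout with the drug were also set against the low-fat controls (HF_TZD_KO against LF_C), a comparison that the series does not list. Of 33 members tested 17 rose and 1 fell, while 9.67% of all 14361 genes tested rose and 5.58% fell. The median log2 fold change was 1.08, against -0.02 over all genes. Cx3cr1 (2.84), Cx3cl1 (2.77), Cxcl5 (2.47) and Cxcr4 (2.20) had the largest positive values among the calls, and Cxcl13 (-2.80) fell. Both diet and drug differ between these groups, as does the genotype label. Leaving out LF_C replicate 3 left 11 calls. Leaving out HF_TZD_KO replicate 5 gave 20, with Ccl6 and Ccl7 added, which did not pass with that library. The calls of Ccl3, Ccl5, Ccl9, Ccr1, Cxcl13 and Cxcr2 each ended when any of several single libraries was left out, with an adjusted p of at most 0.126. All 4 cholangiocyte, all 5 stellate, 5 of 7 macrophage, all 4 tested neutrophil, 3 of 7 tested T and NK cell and 2 of 5 dendritic cell markers rose as well, as did Cfd of the adipocyte list (log2 fold change 3.52). Timd4 of the Kupffer cell list (-1.91, adjusted p = 0.0247) and Clec4g of the endothelial list (-0.87, adjusted p = 0.00416) fell, and no hepatocyte or B cell marker passed. The part of these markers in the result was not tested. The 6 comparisons of pairs of groups share samples (HF_C enters 3 of them and HF_TZD_KO 3), so their values are set side by side below and not as separate evidence. For every member called between 2 groups, all 5 libraries of the group named first lay beyond the mean of the other, apart from Ccl5 in HF_TZD_KO against LF_C with 4 of 5.

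Ccl2 (ENSMUSG00000035385, chromosome 11, 82035571 to 82037453 on GRCm38, as are all positions) encodes the main attractant of monocytes in blood and marrow. The gene had 3.61, 5.42, 3.88, 3.36 and 4.21 CPM in HF_TZD_KO, 6.44, 8.85, 6.09, 6.91 and 7.13 in HF_TZD_C and 5.18, 5.33, 4.29, 8.1 and 7.85 in HF_KO, in replicate order. Control mice had 6.2, 13.1, 6.32, 5.88 and 8.26 CPM in HF_C, against 1.01, 1.86, 1.81 and 0.795 CPM in LF_C. The 4 LF_C values lay below all 20 HFCF values, and the HF_TZD_KO values lay below all of HF_TZD_C. Ccl2 rose under the diet (log2 fold change 2.51, SE 0.32, adjusted p = 0.000118) and was lower in HF_TZD_KO than in HF_TZD_C (log2 fold change -0.79, SE 0.16, adjusted p = 0.00538). Ccl7 (ENSMUSG00000035373, chromosome 11, 82045712 to 82047525), a second ligand of Ccr2 that lies next to Ccl2, followed at a lower level. Its values were 1.37, 0.851, 0.874, 0.734 and 0.256 CPM in HF_TZD_KO, 1.47, 2.53, 2.1, 1.96 and 2.19 in HF_TZD_C and 1.58, 1.12, 0.357, 1.54 and 1.22 in HF_KO, in replicate order. They were 0.787, 2.53, 1.65, 1 and 2 CPM in HF_C, against 0.193, 0.345, 0.396 and 0 CPM in LF_C. HF_TZD_KO replicate 5 and HF_KO replicate 3 lay within the LF_C range, and all HF_TZD_KO values lay below those of HF_TZD_C. Ccl7 rose under the diet (log2 fold change 2.70, SE 0.58, adjusted p = 0.00326) and was lower in HF_TZD_KO than in HF_TZD_C (log2 fold change -1.31, SE 0.33, adjusted p = 0.0182), a call that ended without HF_TZD_C replicate 2 (adjusted p = 0.0527). In the diet test only its HF_C counts carried Ccl7 past the filter on low counts, with 21 counts over LF_C.

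Ccr2 (ENSMUSG00000049103, chromosome 9, 124101950 to 124113557), the receptor of Ccl2 and Ccl7 on inflammatory monocytes, had the smallest adjusted p of the members tested in the diet comparison and in HF_TZD_KO against HF_TZD_C. Ccr2 stood at 16.8, 22.4, 17.4, 13.9 and 8.77 CPM in HF_TZD_KO, 32.8, 50, 28.2, 40.4 and 32.8 in HF_TZD_C and 26, 26.5, 18.9, 19.7 and 28.4 in HF_KO, in replicate order. The values were 25.4, 27.4, 37, 29.5 and 25.4 CPM in HF_C, against 5.36, 4.15, 3.96 and 1.79 CPM in LF_C. The 5 HF_TZD_C libraries held the highest value of the series, 50 CPM, and all lay above the 5 HF_TZD_KO libraries, which in turn lay above the LF_C libraries. Under the diet Ccr2 rose (log2 fold change 2.90, SE 0.24, adjusted p = 8.86e-06). It was lower in HF_TZD_KO than in HF_TZD_C (log2 fold change -1.21, SE 0.22, adjusted p = 0.00214) and remained above LF_C in HF_TZD_KO (log2 fold change 2.05, SE 0.32, adjusted p = 0.00255). Divided by gene length, Ccl2, Ccl7 and Ccr2 stood at 3.74, 1.02 and 2.96 CPM per kilobase in HF_TZD_KO, 7.26, 1.99 and 5.4 in HF_C and 1.25, 0.292 and 0.712 in LF_C. Ccl8 (ENSMUSG00000009185, chromosome 11, 82115185 to 82116799), in the same gene cluster, was read 112 times over the 5 HF_C libraries, against 2 times over the 4 LF_C libraries. The ratio of these count shares was 40.3 (exact 95% interval 10.9 to 336.9, counting error only). Ccl8 passed edgeR's diet test (adjusted p = 0.000753), where the fitted rise was smaller, at 27.9-fold. Only its HF_C counts carried Ccl8 past the filter on low counts. With a library left out it was tested in 5 of 9 fits, and its log2 value there ran from 4.43 to 7.33.

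**Figure D4:**
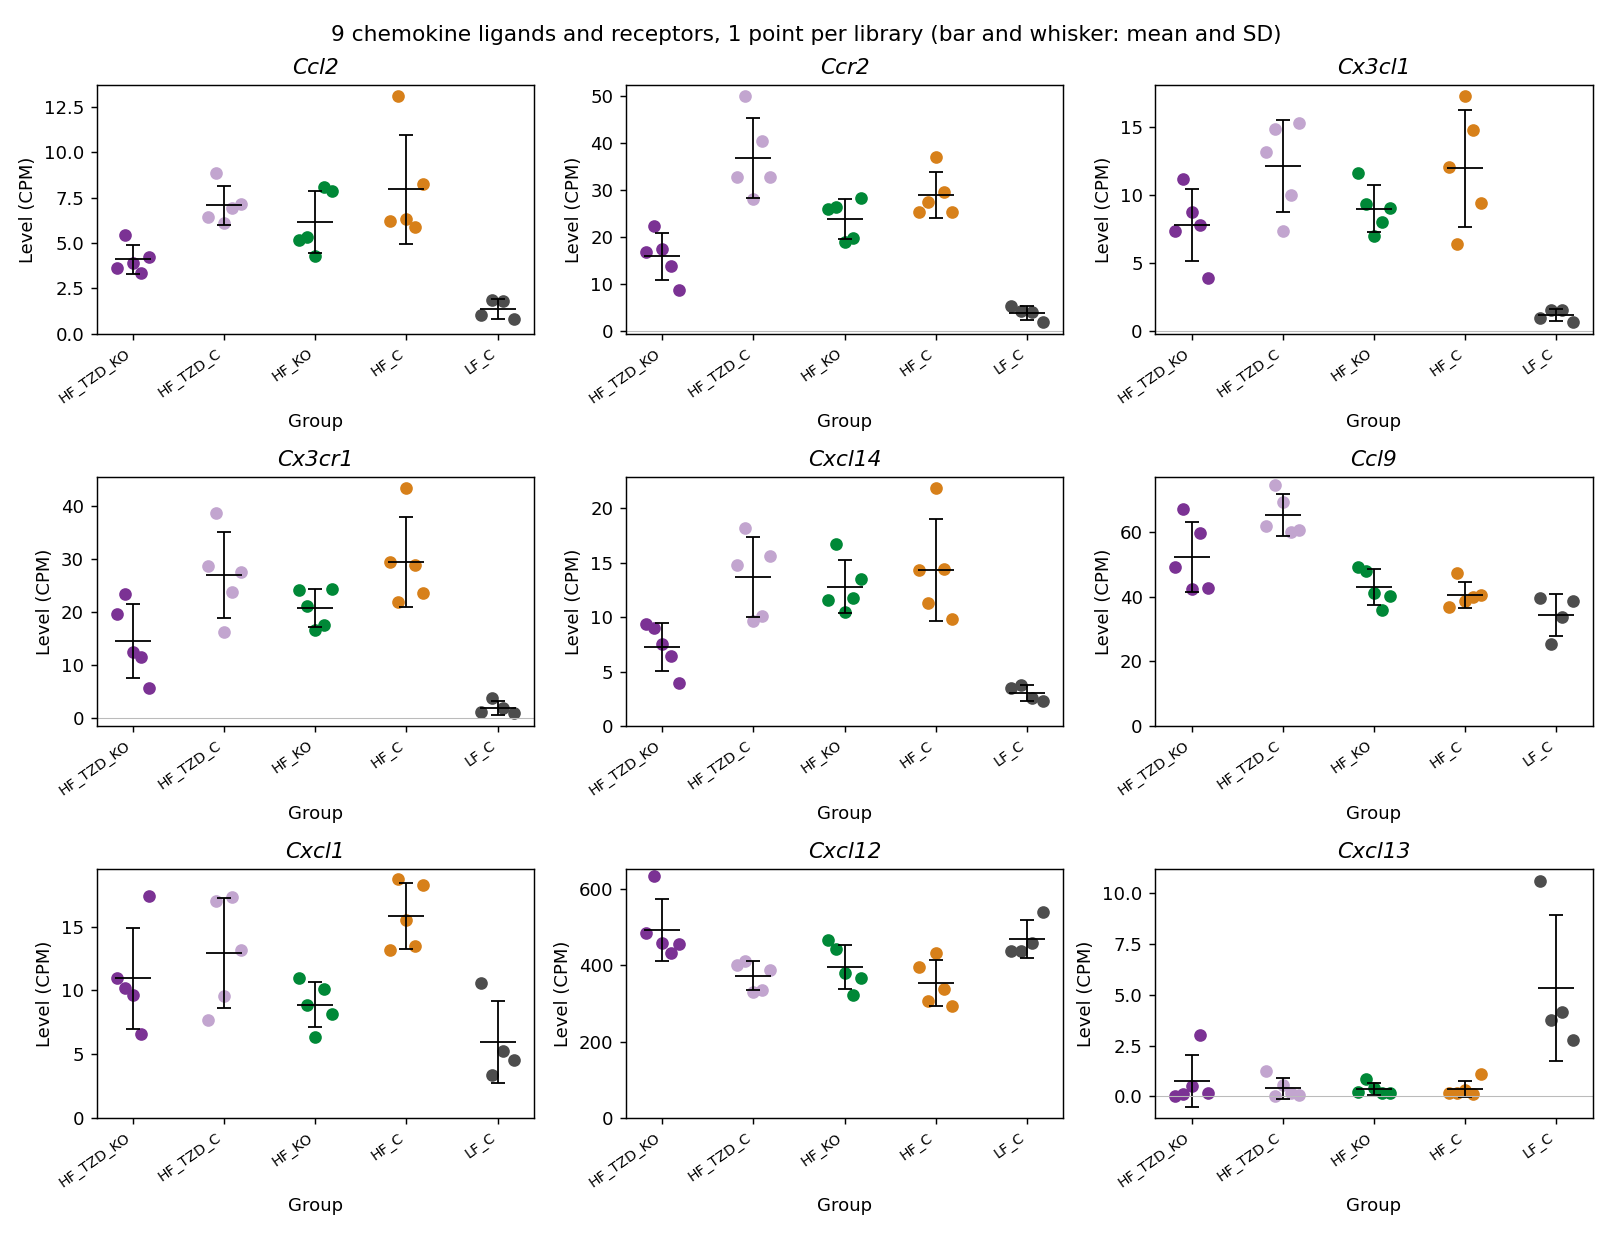
Level in CPM of 9 members, with 1 point per library, groups along the axis and bars for the mean and SD (n = 5, n = 4 in LF_C). For Ccl2, Ccr2 and Cxcl14 the HF_TZD_KO points lie below all HF_TZD_C points, for Ccl9 the HF_TZD_C points lie above all HF_C points, and for Cxcl13 the LF_C points (2.78 to 10.6 CPM) lie above all but 1 of the others.

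Ccl3, Ccl4 and Ccl5 are attractants of monocytes and T cells, and Ccl3 and Ccl5 bind Ccr1. Ccl3 (ENSMUSG00000000982, chromosome 11, 83647844 to 83649355) had 1.64, 1.16, 0.71, 1.63 and 0.359 CPM in HF_TZD_KO, 1.93, 3, 2.66, 1.79 and 2.02 in HF_TZD_C and 1.34, 1.66, 0.993, 1.91 and 1.3 in HF_KO, in replicate order. It stood at 1.54, 2.03, 3.2, 1.8 and 1.69 CPM in HF_C, against 0.435, 0.389, 0.396 and 0.199 CPM in LF_C. All HF_C values exceeded all LF_C values, and the 5 HF_TZD_KO values lay below the 5 of HF_TZD_C without passing the test (log2 fold change -1.04, SE 0.35, adjusted p = 0.0613). Ccl4 (ENSMUSG00000018930, chromosome 11, 83662584 to 83664683) had 0.685, 1.52, 0.874, 1.21 and 0.769 CPM in HF_TZD_KO, 1.93, 3.98, 2.73, 2.42 and 1.89 in HF_TZD_C and 2.02, 3.33, 0.556, 1.98 and 1.81 in HF_KO, in replicate order. In the groups without drug or knockout label it had 1.25, 1.42, 2.15, 1.9 and 1.97 CPM in HF_C, against 0.0967, 0.216, 0.396 and 0.348 CPM in LF_C. Ccl4 rose under the diet (log2 fold change 2.68, SE 0.39, adjusted p = 0.00024), as did Ccl3 (log2 fold change 2.50, SE 0.35, adjusted p = 0.000206), and Ccl4 had the largest fall of the 33 members tested in HF_TZD_KO against HF_TZD_C (log2 fold change -1.35, SE 0.29, adjusted p = 0.00774). Ccl5 (ENSMUSG00000035042, chromosome 11, 83525778 to 83530518) had 3.29, 11.6, 6.61, 8.49 and 1.69 CPM in HF_TZD_KO, 7.59, 14.9, 18, 5.75 and 8.85 in HF_TZD_C and 11.3, 11.6, 2.82, 6.01 and 8.4 in HF_KO, in replicate order. Its levels were 5.87, 7.67, 10.1, 7.92 and 3.87 CPM in HF_C, against 1.93, 1.42, 1.94 and 2.09 CPM in LF_C. Ccl5 varied widely among replicates, from 1.69 to 11.6 CPM within HF_TZD_KO. It rose under the diet (log2 fold change 1.93, SE 0.27, adjusted p = 0.000201), and in HF_TZD_KO against HF_TZD_C it gave a log2 difference of -0.79 (SE 0.44, adjusted p = 0.253).

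Ccr1 (ENSMUSG00000025804, chromosome 9, 123962126 to 123968692) is a receptor of monocytes and neutrophils. Ccr1 stood at 1.23, 3.54, 1.75, 1.42 and 0.821 CPM in HF_TZD_KO, 1.79, 6.51, 4.32, 5.05 and 3.48 in HF_TZD_C and 3.12, 2.04, 0.874, 1.83 and 2.15 in HF_KO, in replicate order. It was at 2.36, 3.83, 4.74, 3.74 and 1.86 CPM in HF_C, against 0.677, 0.518, 0.396 and 0.0994 CPM in LF_C. The highest HF_TZD_KO value, 3.54 CPM, lay within HF_TZD_C. Ccr1 rose under the diet (log2 fold change 2.93, SE 0.43, adjusted p = 0.000278). In HF_TZD_KO against HF_TZD_C it was lower (log2 fold change -1.26, SE 0.39, adjusted p = 0.0467), but this call ended when any of 8 of the 10 libraries was left out, all except HF_TZD_C replicate 1 and HF_TZD_KO replicate 2, with an adjusted p of at most 0.127.

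Ccl6 and Ccl9 are ligands of Ccr1 in mouse and had the highest levels per kilobase of the CC ligands in HF_C. Ccl9 (ENSMUSG00000019122, chromosome 11, 83572919 to 83578636) had 49.3, 67.3, 42.4, 59.8 and 42.7 CPM in HF_TZD_KO, 61.8, 74.6, 69.3, 60.2 and 60.7 in HF_TZD_C and 49.2, 47.9, 41.3, 36 and 40.3 in HF_KO, in replicate order. Without the drug and the label it had 36.7, 47.4, 38.6, 39.8 and 40.5 CPM in HF_C, against 39.7, 25.3, 33.7 and 38.6 CPM in LF_C. All HF_TZD_C values lay above all HF_C values, while HF_C overlapped with LF_C. Ccl9 was the member with the smallest adjusted p for rosiglitazone in controls (log2 fold change 0.69, SE 0.08, adjusted p = 0.000266). In libraries labelled knockout the drug gave a log2 difference of 0.29 (SE 0.13, adjusted p = 0.32) and the difference of the drug effects on the log2 scale was -0.39 (SE 0.17, adjusted p = 0.238). Ccl6 (ENSMUSG00000018927, chromosome 11, 83587882 to 83593087) had 29.3, 28.4, 13.1, 31.9 and 13.7 CPM in HF_TZD_KO, 39.5, 48.3, 45.4, 36 and 30.9 in HF_TZD_C and 25.6, 31.2, 19.7, 15.2 and 33.2 in HF_KO, in replicate order. Its values were 26.2, 22.5, 29.5, 19.6 and 31.2 CPM in HF_C, against 16.7, 14.7, 12.7 and 7.55 CPM in LF_C. HF_TZD_C and HF_C overlapped in 1 library of each, and 3 HF_TZD_KO libraries held 28.4 to 31.9 CPM while replicates 3 and 5 held 13.1 and 13.7. Ccl6 rose under the diet (log2 fold change 0.99, SE 0.21, adjusted p = 0.00279) and with the drug in controls (log2 fold change 0.63, SE 0.14, adjusted p = 0.0165), and a fit of all 24 libraries ended the drug call (adjusted p = 0.202). It was lower in HF_TZD_KO than in HF_TZD_C (log2 fold change -0.78, SE 0.24, adjusted p = 0.044). That call ended without any of HF_TZD_KO replicates 3 and 5 and HF_TZD_C replicates 1 to 4, with an adjusted p of at most 0.11.

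Cx3cl1, or fractalkine, is a membrane-bound ligand that holds cells carrying Cx3cr1, a receptor of monocytes and macrophages. Cx3cl1 (ENSMUSG00000031778, chromosome 8, 94772009 to 94782423) had 7.35, 11.2, 8.74, 7.76 and 3.85 CPM in HF_TZD_KO, 13.2, 14.9, 7.38, 9.99 and 15.3 in HF_TZD_C and 11.6, 9.36, 6.99, 8.02 and 9.03 in HF_KO, in replicate order. Without the drug or the label it had 12.1, 6.36, 17.3, 14.8 and 9.39 CPM in HF_C, against 0.918, 1.51, 1.5 and 0.596 CPM in LF_C. Every HFCF library lay above every LF_C library. Cx3cl1 rose under the diet (log2 fold change 3.38, SE 0.35, adjusted p = 2.81e-05) and stayed above LF_C in HF_TZD_KO (log2 fold change 2.77, SE 0.35, adjusted p = 0.00136). Cx3cr1 (ENSMUSG00000052336, chromosome 9, 119901616 to 120068283) had 19.8, 23.4, 12.5, 11.6 and 5.8 CPM in HF_TZD_KO, 28.8, 38.7, 16.3, 23.8 and 27.6 in HF_TZD_C and 24.2, 21.3, 16.7, 17.7 and 24.4 in HF_KO, in replicate order. It stood at 29.5, 22, 43.4, 29 and 23.7 CPM in HF_C, against 1.26, 3.89, 1.98 and 0.994 CPM in LF_C. Its lowest HFCF value, 5.80 CPM in HF_TZD_KO replicate 5, was above the highest LF_C value. Cx3cr1 rose under the diet (log2 fold change 3.83, SE 0.34, adjusted p = 1.15e-05). In HF_TZD_KO against HF_TZD_C it did not pass (log2 fold change -0.88, SE 0.31, adjusted p = 0.0741), with a 95% interval of -1.49 to -0.27.

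Cxcl1, Cxcl2 and Cxcl5 lie together on chromosome 5 and bind Cxcr2 on neutrophils. Cxcl1 (ENSMUSG00000029380, chromosome 5, 90891241 to 90893115) had 11, 10.2, 9.67, 6.61 and 17.4 CPM in HF_TZD_KO, 7.66, 17, 9.56, 17.3 and 13.2 in HF_TZD_C and 11, 8.86, 6.39, 10.1 and 8.14 in HF_KO, in replicate order. Control mice had 13.2, 18.7, 15.5, 13.5 and 18.3 CPM in HF_C, against 10.6, 3.41, 5.24 and 4.52 CPM in LF_C. All HF_KO values lay below all HF_C values, whereas HF_TZD_KO and HF_TZD_C overlapped over most of their range. Cxcl1 rose under the diet (log2 fold change 1.40, SE 0.28, adjusted p = 0.00188) and was lower in HF_KO than in HF_C, with a 95% interval of -1.11 to -0.54. The same label under the drug gave a log2 difference of -0.24 (SE 0.26, adjusted p = 0.591). The knockout call was kept when any library was left out (adjusted p at most 0.0481) and was lost in a fit of all 24 libraries (adjusted p = 0.242). Cxcl5 (ENSMUSG00000029371, chromosome 5, 90759299 to 90761625) had 1.32, 2.51, 0.82, 0.524 and 0.718 CPM in HF_TZD_KO, 2.4, 6.04, 1.33, 2.03 and 2.71 in HF_TZD_C and 0.809, 1.91, 0.635, 0.989 and 1.07 in HF_KO, in replicate order. Its values were 1.05, 2.68, 2.46, 2.25 and 2.18 CPM in HF_C, against 0.242, 0.0864, 0.22 and 0.298 CPM in LF_C. The highest LF_C value, 0.298 CPM, lay below the lowest HFCF value, 0.524 CPM. Only the HF_C counts carried Cxcl5 past the filter on low counts in the diet test, with 18 counts over LF_C. Cxcl5 rose under the diet (log2 fold change 3.30, SE 0.42, adjusted p = 9.94e-05), and Cxcl2 (ENSMUSG00000058427, chromosome 5, 90903899 to 90905909) rose as well (log2 fold change 1.46, SE 0.44, adjusted p = 0.02), a call that ended without LF_C replicate 1 (adjusted p = 0.0563).

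Cxcr2 (ENSMUSG00000026180, chromosome 1, 74153989 to 74161246), the receptor of these ligands, averaged under 1 CPM in every group. Its libraries had 0.959, 0.448, 1.26, 0.996 and 1.13 CPM in HF_TZD_KO, 0.322, 1.79, 0.885, 0.912 and 0.816 in HF_TZD_C and 0.526, 1.12, 0.119, 0.293 and 1.18 in HF_KO, in replicate order. They had 0.952, 1.03, 0.269, 0.554 and 1.2 CPM in HF_C, against 0.242, 0.561, 0.352 and 0.298 CPM in LF_C. Groups overlapped throughout, with values from 0.119 to 1.79 CPM on the HFCF diet. The diet comparison gave a log2 difference of 1.10 (SE 0.47, adjusted p = 0.0814). HF_TZD_KO lay above LF_C (log2 fold change 1.37, SE 0.42, adjusted p = 0.0458), which did not hold without LF_C replicates 1, 3 or 4 or HF_TZD_KO replicates 1, 3 or 4 (adjusted p at most 0.109).

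Cxcl9 and Cxcl10 are induced by interferon and draw T cells that carry Cxcr3. Cxcl9 (ENSMUSG00000029417, chromosome 5, 92321331 to 92328079) had 23.8, 41.8, 30.2, 32.9 and 24.7 CPM in HF_TZD_KO, 26.3, 62.7, 60.5, 35.4 and 44.3 in HF_TZD_C and 48.7, 54.2, 23.1, 41.2 and 42.2 in HF_KO, in replicate order. Control mice had 28.9, 45.8, 39.5, 44.9 and 29.9 CPM in HF_C, against 19, 23, 29.8 and 23.7 CPM in LF_C. It rose under the diet by less than most members (log2 fold change 0.65, SE 0.16, adjusted p = 0.00786), and the lowest HF_C value, 28.9 CPM, lay below the highest LF_C value, 29.8 CPM. Cxcl10 (ENSMUSG00000034855, chromosome 5, 92346638 to 92348889) had 3.47, 6.85, 6.99, 5.4 and 5.39 CPM in HF_TZD_KO, 6.66, 14.9, 12.2, 7.85 and 9.66 in HF_TZD_C and 12.7, 14.9, 4.65, 11.8 and 8.81 in HF_KO, in replicate order. Its values were 6.79, 12.6, 8.75, 10 and 7.95 CPM in HF_C, against 3.53, 4.15, 9.65 and 5.46 CPM in LF_C. LF_C replicate 3, at 9.65 CPM, lay within HF_C. Cxcl10 did not pass in the diet comparison (log2 fold change 0.68, SE 0.28, adjusted p = 0.0676) and was lower in HF_TZD_KO than in HF_TZD_C (log2 fold change -0.87, SE 0.24, adjusted p = 0.0259), until HF_TZD_C replicate 2 or 3 was left out (adjusted p at most 0.0738). In HF_TZD_KO against HF_KO Cxcl10 gave a log2 difference of -0.90 (SE 0.28, adjusted p = 0.133). Cxcr3 (ENSMUSG00000050232, chromosome X, 101731535 to 101734269) had 1, 1.97, 0.601, 1.15 and 0.564 CPM in HF_TZD_KO, 1.9, 1.4, 1.59, 2.07 and 1.37 in HF_TZD_C and 2.06, 1.37, 1.59, 0.403 and 1.18 in HF_KO, in replicate order. It stood at 1.25, 1.19, 1.88, 0.727 and 1.37 CPM in HF_C, against 1.3, 0.993, 0.925 and 0.944 CPM in LF_C. Groups overlapped for Cxcr3 and no comparison passed, with a diet interval of -0.31 to 0.90.

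Cxcl16 is a membrane-bound ligand and scavenger receptor of macrophages and sinusoidal endothelium, and its receptor Cxcr6 marks natural killer T cells and resident T cells of liver. Cxcl16 (ENSMUSG00000018920, chromosome 11, 70453983 to 70459984) had 24.3, 26.1, 19.8, 25.1 and 14.8 CPM in HF_TZD_KO, 34.7, 41.3, 27.9, 28.8 and 32.2 in HF_TZD_C and 32.1, 30.2, 20.8, 23.4 and 27.7 in HF_KO, in replicate order. Without the drug or the label it had 32.8, 24, 39.7, 31.1 and 29.2 CPM in HF_C, against 11.9, 11.9, 10.3 and 7.6 CPM in LF_C. The LF_C libraries lay below all others, and HF_TZD_KO lay below HF_TZD_C. Cxcl16 rose under the diet (log2 fold change 1.58, SE 0.17, adjusted p = 3.42e-05) and was lower in HF_TZD_KO than in HF_TZD_C (log2 fold change -0.58, SE 0.15, adjusted p = 0.0231). That call ended without HF_TZD_C replicate 1 or 2 or HF_TZD_KO replicate 3 (adjusted p at most 0.0659). Cxcr6 (ENSMUSG00000048521, chromosome 9, 123806477 to 123811754) had 1, 1.66, 1.31, 3.25 and 1.49 CPM in HF_TZD_KO, 2.22, 1.83, 2.1, 2.03 and 2.19 in HF_TZD_C and 2.83, 2.75, 1.19, 1.32 and 1.7 in HF_KO, in replicate order. It had 2.36, 1.34, 3.77, 1.83 and 1.65 CPM in HF_C, against 0.677, 0.561, 0.617 and 1.64 CPM in LF_C. LF_C replicate 4 lay within HF_C. Cxcr6 rose under the diet (log2 fold change 1.33, SE 0.41, adjusted p = 0.0202), a call that ended without HF_C replicate 3 or LF_C replicate 1, 2 or 3 (adjusted p at most 0.0592).

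Cxcl12 is made by endothelial, stellate and other stromal cells and retains cells that carry Cxcr4. Cxcl12 (ENSMUSG00000061353, chromosome 6, 117168535 to 117181367) had 483.6, 634.5, 459.0, 433.0 and 456.5 CPM in HF_TZD_KO, 400.6, 411.8, 330.4, 335.8 and 387.9 in HF_TZD_C and 466.9, 441.7, 379.5, 323.1 and 367.6 in HF_KO, in replicate order. The values were 396.7, 306.3, 432.5, 336.8 and 293.1 CPM in HF_C, against 436.3, 438.1, 458.6 and 540.9 CPM in LF_C. HF_C lay below LF_C in every library, by a narrow gap (432.5 CPM at most in HF_C, against 436.3 at least in LF_C). HF_TZD_KO lay above HF_TZD_C in every library. Cxcl12 fell under the diet (log2 fold change -0.42, SE 0.12, adjusted p = 0.0168) and was higher in HF_TZD_KO than in HF_TZD_C (log2 fold change 0.40, SE 0.11, adjusted p = 0.027). Both calls depended on the scaling. With library totals in place of TMM, the diet gave -0.14 (adjusted p = 0.408) and HF_TZD_KO against HF_TZD_C gave 0.24 (adjusted p = 0.203). The diet call also ended without HF_C replicate 4 or 5 (adjusted p at most 0.0563), and the other without HF_TZD_C replicate 3, 4 or 5 (adjusted p at most 0.0669). The summed endothelial markers were 167.0 to 262.2 CPM in HF_TZD_KO, 229.3 to 332.2 in HF_TZD_C, 164.2 to 285.6 in HF_C and 199.1 to 301.0 in LF_C.

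Cxcr4 (ENSMUSG00000045382, chromosome 1, 128588199 to 128592293), the receptor of Cxcl12 on most leukocytes, rose under the diet, whereas the fall of Cxcl12 depended on the scaling. Its libraries stood at 7.35, 5.73, 5.46, 6.82 and 2.56 CPM in HF_TZD_KO, 5.76, 8.61, 5.13, 7.92 and 5.93 in HF_TZD_C and 8.66, 3.95, 5.52, 4.07 and 6.66 in HF_KO, in replicate order. They stood at 7.12, 3.91, 8.01, 4.57 and 4.92 CPM in HF_C, against 1.5, 0.95, 1.81 and 0.596 CPM in LF_C. Every HFCF library lay above every LF_C library. Cxcr4 rose under the diet (log2 fold change 2.21, SE 0.33, adjusted p = 0.000287) and lay above LF_C in HF_TZD_KO (log2 fold change 2.20, SE 0.37, adjusted p = 0.00394), while HF_TZD_KO against HF_TZD_C gave a log2 difference of -0.25 (SE 0.25, adjusted p = 0.537). Per kilobase, Cxcl12 and Cxcr4 stood at 87.7 and 3.09 CPM in HF_TZD_KO, at 62.7 and 3.16 in HF_C and at 83.3 and 0.672 in LF_C.

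Cxcl14 is a ligand of epithelia and stroma whose receptor is not settled. Cxcl14 (ENSMUSG00000021508, chromosome 13, 56288647 to 56296551) had 9.36, 9.05, 7.49, 6.45 and 3.95 CPM in HF_TZD_KO, 14.8, 18.2, 9.63, 10.1 and 15.6 in HF_TZD_C and 11.6, 16.7, 10.5, 11.8 and 13.5 in HF_KO, in replicate order. It had 14.3, 11.3, 21.9, 14.4 and 9.81 CPM in HF_C, against 3.48, 3.76, 2.6 and 2.29 CPM in LF_C. The 5 HF_TZD_KO libraries lay below all other HFCF libraries and above LF_C. Cxcl14 rose under the diet (log2 fold change 2.23, SE 0.25, adjusted p = 4.84e-05), was lower in HF_TZD_KO than in HF_TZD_C (log2 fold change -0.90, SE 0.23, adjusted p = 0.0203) and gave a log2 difference of -0.80 (SE 0.21, adjusted p = 0.0883) in HF_TZD_KO against HF_KO. The diet call was kept whichever library was left out (adjusted p at most 0.000348), and the call against HF_TZD_C ended without HF_TZD_C replicate 2 or 5 (adjusted p at most 0.0606).

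Cxcl13 draws B cells to follicles through Cxcr5, and it was chosen for description after its values were seen. Cxcl13 (ENSMUSG00000023078, chromosome 5, 95956928 to 95961067) had 0.0457, 0.134, 0.492, 3.04 and 0.154 CPM in HF_TZD_KO, 1.25, 0, 0.553, 0.175 and 0.0859 in HF_TZD_C and 0.243, 0.874, 0.437, 0.183 and 0.185 in HF_KO, in replicate order. It had 0.164, 0.192, 0.303, 0.138 and 1.09 CPM in HF_C, against 10.6, 3.76, 4.14 and 2.78 CPM in LF_C. All LF_C libraries lay above all HFCF libraries except HF_TZD_KO replicate 4. Cxcl13 fell under the diet (log2 fold change -3.81, SE 0.58, adjusted p = 0.00035), the largest fall of the members tested, to a level per kilobase of 0.322 CPM in HF_C (rank 35 of 54), against 4.54 in LF_C (rank 9). In HF_TZD_KO against LF_C it gave a log2 difference of -2.80 (SE 0.83, adjusted p = 0.0417), which passed in 2 of the 9 fits with a library left out, those without HF_TZD_KO replicate 4 or 5. Cxcr5 gave a log2 difference of 0.19 (SE 0.28, adjusted p = 0.635) under the diet, and its exons overlap Bcl9l on the opposite strand. The B cell markers summed to 4.20 to 11.5 CPM in HF_C, against 3.04 to 6.62 in LF_C.

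Ccl20 and its receptor Ccr6, which guides T cells of the Th17 type and B cells, were near the limit of detection. Ccl20 (ENSMUSG00000026166, chromosome 1, 83116766 to 83119167) had 0.183, 0.448, 0.71, 0.367 and 0.256 CPM in HF_TZD_KO, 0.68, 0.312, 0.148, 0.175 and 0.344 in HF_TZD_C and 0.121, 0.333, 0.238, 0.293 and 0.185 in HF_KO, in replicate order. It had 0.459, 0.0767, 0.336, 0.45 and 0.141 CPM in HF_C, against 0, 0, 0 and 0 CPM in LF_C. It was read 43 times over HF_C and 0 times over LF_C, which is at least 10.3-fold higher against a limit of 3 counts over the group. In HF_TZD_KO it was read 39 times, at least 12-fold higher than that limit in LF_C. The filter on low counts left Ccl20 out of the diet test, and without the filter it passed. Ccr6 (ENSMUSG00000040899, chromosome 17, 8236043 to 8257127) had 0.594, 0.851, 0.219, 0.262 and 0.359 CPM in HF_TZD_KO, 0.859, 0.546, 0.664, 0.421 and 0.773 in HF_TZD_C and 0.931, 0.458, 0.596, 0.586 and 0.555 in HF_KO, in replicate order. Its values were 0.262, 0.307, 0.639, 0.138 and 0.211 CPM in HF_C, against 0.435, 0.475, 0.0881 and 0.248 CPM in LF_C. Groups overlapped for Ccr6, and its largest change, with the drug in controls, did not pass (log2 fold change 1.05, SE 0.39, adjusted p = 0.158).

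Among the other members, Ccr7 (log2 fold change 1.94, SE 0.29, adjusted p = 0.000328), which leads dendritic cells and naive T cells to lymphoid tissue, and its ligand Ccl19 (log2 fold change 1.58, SE 0.39, adjusted p = 0.00675) rose under the diet, whereas Ccl21a, the other ligand of Ccr7, gave a log2 difference of -0.40 (SE 0.65, adjusted p = 0.653). Ccl22, a ligand of Ccr4 made by dendritic cells and macrophages, rose (log2 fold change 1.48, SE 0.31, adjusted p = 0.00243) and lay above LF_C in HF_TZD_KO (log2 fold change 1.93, SE 0.29, adjusted p = 0.00242). Ccr4 was read 7, 15, 15, 19 and 5 times in HF_TZD_KO, HF_TZD_C, HF_KO, HF_C and LF_C, and Ccl17, its other ligand, 27, 7, 6, 10 and 3 times. The gut-homing ligand Ccl25 gave a log2 difference of -0.22 (SE 0.18, adjusted p = 0.334) under the diet, and its receptor Ccr9 -0.76 (SE 0.56, adjusted p = 0.302). Ccl24, an attractant of eosinophils, gave a log2 difference of -0.02 (SE 0.37, adjusted p = 0.978), Ccl27a, a skin-homing ligand, -0.48 (SE 0.22, adjusted p = 0.0955), and its receptor Ccr10 0.62 (SE 0.64, adjusted p = 0.469). Of the members that passed in no comparison, Ccl27a, Ccl25 and Ccl24 had the highest levels, at 11 ± 4.24 and 5.41 ± 1.28 CPM in LF_C and 2.06 ± 0.686 CPM in HF_KO (mean ± SD, n = 4 in LF_C and n = 5 in HF_KO). Ccl11 was read 47 times over HF_C and 0 times over LF_C, at least 11.3-fold higher against 3 counts over the group, and Ccl12 41 and 3 times, a ratio of count shares of 9.84 (exact 95% interval 3.14 to 49.7). Strand was not recorded in these libraries, and transcripts from genes overlapping on the other strand may enter the counts of Ccl25 (Elavl1), Ccl27a (Il11ra1), Ccr9 (Slc6a20a), Cx3cr1 (Gm33858), Cxcl10 (Art3), Cxcl16 (Zmynd15) and Cxcr5 (Bcl9l). Ccl21a and Ccl21b, and Ccl27a and Ccl27b, are near-identical copies whose reads the counting may not place.

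The members share genome position as well as name. Of the 54, 39 lie within 500 kb of another member, in 10 clusters. Over all genes tested, 21.4% rose under the diet and 7.81% fell in HF_TZD_KO against HF_TZD_C. With rosiglitazone in controls 2.69% rose, and 0.539% fell in HF_KO against HF_C. The cluster of Ccl2, Ccl7, Ccl11, Ccl12, Ccl8 and Ccl1 (chromosome 11, 82035571 to 82305690) had 3 members tested under the diet and all 3 rose, and 2 of 2 tested fell in HF_TZD_KO against HF_TZD_C. The neighbouring cluster of Ccl5, Ccl9, Ccl6, Ccl3 and Ccl4 (83525778 to 83664683) had 4 of 5 higher under the diet and 2 of 5 lower in HF_TZD_KO against HF_TZD_C. Both members that rose with rosiglitazone in controls lie in it. The cluster of Cxcl5, Cxcl3, Cxcl15, Cxcl1 and Cxcl2 (chromosome 5, 90759299 to 90905909) had 3 of 3 higher under the diet, and 1, Cxcl1, lower in HF_KO against HF_C. In HF_TZD_KO against HF_TZD_C 0 of its 3 tested members fell. A cluster of 7 receptors on chromosome 9, Ccr2, Ccr1 and Cxcr6 among them, had 4 of 5 tested higher under the diet and 3 of 4 tested lower in HF_TZD_KO against HF_TZD_C. In the cluster of Ccl27a, Ccl21b, Ccl27b, Ccl19 and Ccl21a 1 of 3 tested rose under the diet. For Cxcl9 and Cxcl10 it was 1 of 2, and for Ccl22, Cx3cl1 and Ccl17 2 of 2 tested. The other clusters had 1 member tested each under the diet, which rose for Cx3cr1 and Ccr8 and not for Cxcr2 and Cxcr1 or Ccl26 and Ccl24.

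Genes around the chemokines were read from 4 lists. Over all genes tested, 21.4% rose and 19.2% fell under the diet, and 8.53% rose and 7.81% fell in HF_TZD_KO against HF_TZD_C. In HF_TZD_KO against HF_KO 0.309% fell, and 0.892% were lower for the difference of the drug effects. Of 18 tested genes of receptor signalling, 15 rose under the diet, among them Rgs2 (log2 fold change 1.76), which ends G protein signals, Elmo1 (1.77), which links receptors to Rac, and Rgs1 (1.43). In HF_TZD_KO against HF_TZD_C, 9 of the 18 fell, among them Fgr (-0.90), a kinase of myeloid cells, and Rgs2 (-0.71). Of 14 tested inducers of chemokine transcription, 7 rose under the diet (Relb 1.62, Nfkb2 0.80 and Tnfaip3 1.13, all of the NF-κB pathway) and 5 fell in HF_TZD_KO against HF_TZD_C (Tlr2 -0.65 and Il1a -0.58 among them). In HF_TZD_KO against HF_KO 2 of the 14 fell, Tlr2 (-0.59) among them, and Tlr2 (-0.76, adjusted p = 0.0323) was the 1 gene of these lists past the threshold for the difference of the drug effects. Of 6 proteases that cleave or shed chemokines, 3 rose and 1 fell under the diet (Mmp2 2.77 and Mmp12 3.29 higher, Dpp4 -0.51), and in HF_TZD_KO against HF_TZD_C Dpp4 was higher (0.56) and Mmp12 (-1.20) and Adam17 (-0.33) lower. Dpp4 trims the amino terminus of several chemokines. Of 8 tested family genes outside the name pattern, the ligand Pf4 (2.26) and the decoy receptor Ackr3 (1.60), which binds Cxcl12, rose under the diet and the decoy receptor Ackr4 (-1.01) fell. Ackr1 (-0.93) fell in HF_TZD_KO against HF_TZD_C. No gene of the 4 lists passed in HF_KO against HF_C or in HF_TZD_C against HF_C by edgeR's test, where the median log2 fold changes of the receptor signalling list were -0.08 and 0.27.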

How the data were processed

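RNA of whole liver from 24 mice was sequenced from libraries without strand information. Per the submitters' processing notes, STAR 2.6.1 and HTSeq 0.6.1 were used with GRCm38/mm10. The authors deposited 5 tables, each with read counts, FPKM values, a signal that equals counts divided by a size factor, log2 fold changes, p-values and gene lengths. No column was left without a sample. The count columns were joined by gene ID. Each comparison was fitted to the counts of its own groups with edgeR 4.0.16 (R 4.3.3, filterByExpr with minimum count 10 and total 15, TMM scaling, quasi-likelihood test, two-sided, Benjamini-Hochberg adjustment over all genes tested). The difference of drug effects used the 20 HFCF libraries. The threshold was an adjusted p of 0.05, and SE is the log2 fold change divided by the root of the F statistic. The FPKM values were not used for tests, and the deposited fold changes and p-values were used only for counts of calls. Steps were tested on simulated counts.

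Alternatives were other scalings, no filter, DESeq2 1.42.0, all 24 libraries in 1 fit, a replicate block, a log2 fold change of at least 1 and leaving out each library. The members, gene lists and tests were chosen with earlier results of these data known. Values per library are given for 16 members of known ligand and receptor pairs, for each member past the threshold within the HFCF diet, and for the 10 with the smallest adjusted p under the diet. Other members past the threshold are named with their fold change, and list genes by the smallest adjusted p, at most 3 per comparison. Replicate numbers are not said to pair mice, and deviations of libraries with the same number correlated between -0.18 and 0.15. Counting intervals (95%) are exact, floors are 3 counts, and both cover counting error only. Libraries of 19502150 to 28742638 counts set the depth. The 95% interval of a log2 fold change is the value plus and minus the normal quantile times the SE. Some genes that these rules cover are not reported here, and counts over members and lists include them.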

Additional observations from a re-analysis of the deposited data

Results flagged for a closer look

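In 4 of 129 groups looked at (26 members by group), 1 library stood apart from the others of its group by Dixon's test, which flags about 1 in 20 groups by chance. HF_TZD_KO replicate 2 had 634.5 CPM of Cxcl12, the ligand of Cxcr4, against 433.0 to 483.6 CPM in the other HF_TZD_KO libraries. For Cxcl13, the attractant of B cells, HF_TZD_KO replicate 4 had 3.04 CPM, against 0.0457 to 0.492 CPM in the others of that group, and HF_C replicate 5 had 1.09 CPM, against 0.138 to 0.303 CPM. For Cxcr6, a receptor of resident T cells, LF_C replicate 4 had 1.64 CPM, against 0.561 to 0.677 CPM in the other LF_C libraries.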

How the results depend on the processing

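Counts of members past the threshold moved by more than 1.5 times under few settings. With all 24 libraries in 1 fit, HF_KO against HF_C gave 0 in place of 1 and HF_TZD_C against HF_C 1 in place of 2. With a log2 fold change of at least 1, these gave 0 and 0, and HF_TZD_KO against HF_TZD_C gave 4 in place of 11. DESeq2 gave 2 in place of 0 for HF_TZD_KO against HF_KO and 3 in place of 0 for the difference of drug effects. Leaving out 1 library gave 23 to 25 calls for HF_C against LF_C, 2 to 4 for HF_TZD_C against HF_C, 5 to 16 for HF_TZD_KO against HF_TZD_C (16 without HF_TZD_KO replicate 2), 11 to 20 for HF_TZD_KO against LF_C and 0 to 2 for the difference of drug effects. The cause was not tested. Of 57 calls of single members, 17 ended when at least 1 library was left out. A fit in which the filter removed the member is not counted as an end. This concerns Ccl8 in HF_C against LF_C, which is not among the 17, and Ccl3 in HF_TZD_KO against LF_C, which is, each tested in 5 of 9 such fits. Under the other settings, apart from the log2 fold change of at least 1, 328 of 342 results of single members kept their call, 14 lost it in the same direction and 0 reversed. The log2 fold change of at least 1 is not among the 342, and with it HF_C against LF_C gave 22 in place of 25 and HF_TZD_KO against LF_C 17 in place of 18, besides the losses given above. Library totals in place of TMM moved the median of all genes to 0.24 in HF_C against LF_C. With the replicate block, although the numbers do not pair the mice, the counts were 25, 1, 2, 0, 14, 18 and 0 for HF_C against LF_C, HF_KO against HF_C, HF_TZD_C against HF_C, HF_TZD_KO against HF_KO, HF_TZD_KO against HF_TZD_C, HF_TZD_KO against LF_C and the difference of drug effects. Depth limits the 23 members under 1 CPM.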

Other observations

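The authors' deposited table for HF_C against LF_C called 27 members higher and 2 lower, and held all 25 calls given here together with Ccl11, Ccl12, Ccl20 and Cxcl10. For HF_TZD_KO against HF_TZD_C the authors' deposited table called 1 member higher and 13 lower, with Ccl3, Ccl12 and Cxcl5 beyond the 11 calls given here. For HF_TZD_KO against HF_KO the authors' deposited table called 2 members lower, Cxcl10 and Cxcl14, where edgeR's test called 0.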
